A study of Drosophila melanogaster with 34 samples.

Results

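The 3 Stalker entries STALKER2, STALKER3 and STALKER4 are the rows of that name among the 129 transposon consensus sequences in the deposited tables. The rows were found by name, and the family was picked with earlier results of these data known. Stalker elements are LTR retrotransposons of Drosophila: they are transcribed from a long terminal repeat, and their RNA is copied back into DNA. In the somatic cells of the fly ovary, elements of this kind are held in check by piRNAs, small RNAs that guide the nuclear protein Piwi to nascent transposon transcripts. Silent copies are known to carry the histone mark H3K9me3 and its reader HP1a, and linker histone H1 is known for compacting chromatin.

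The measurements were made in OSC, ovarian somatic cells: a Drosophila culture of follicle-type cells that keep a nuclear piRNA pathway and include no germ cells. The 34 samples formed 25 groups and gave 29 columns in 11 tables. All cells were grown at 26 degrees and transfected with siRNA: against EGFP in the control, or against Piwi (Piwi-KD), histone H1 (H1-KD), HP1a (HP1a-KD) or Maelstrom (Mael-KD), a factor of Piwi-guided silencing. Poly(A)+ RNA was measured in the control, Piwi-KD and H1-KD, Piwi-bound small RNA in the control and H1-KD, and chromatin accessibility by ATAC-seq in the control and all 4 knockdowns. Chromatin immunoprecipitation (ChIP) with 3 µg of antibody and its matching input were numbered as samples: H3K9me3 and HP1a in the control, Piwi-KD and H1-KD of sample 1, and H1 in Piwi-KD (sample 1), Mael-KD (sample 2) and HP1a-KD (sample 3), each with its own control. Only transposon rows were analysed here, so neither the knockdown of each target nor the cell type was checked against gene expression.

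Library totals were 20625614 to 25544579 reads for RNA, 6973985 to 7397276 for small RNA, 3381967 to 5674137 for ATAC, 1560307 to 4266312 for input and 2170354 to 4261323 for ChIP. RNA, small RNA, H3K9me3 and HP1a had 1 library per condition, and ATAC had 1 column per condition for 2 labelled replicates. These comparisons have no replicate check and no p-value. Their 95% intervals cover counting error only. They treat reads as independent molecules, which PCR reads are not, so they may be too narrow even for that. Every comparison within an assay and sample number used the same control library. The ChIP targets of sample 1 also shared 1 input library per condition, so their ratios to input are not independent of each other. A change is called here where RNA or small RNA differed by at least 2-fold, or ATAC or ChIP by at least 1.5-fold, among the 96 transposons left after the lowest 25% of a table were set aside. Bulk measurements cannot tell fewer cells with a given RNA or accessible copy from less of it per cell.

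The 3 entries differed first in how much DNA they represent. Their consensus lengths, recovered from the values, were 7826 bp for STALKER2, 372 bp for STALKER3 and 6932 bp for STALKER4. STALKER3 is therefore a short entry that collects few reads, and its values carry the widest intervals throughout. Its length is short for a full LTR element, so it may stand for only part of one, which was not checked. In the 3 control inputs, which measure the DNA that matches each consensus, STALKER2 had 43.4, 46.3 and 46.9 RPKM (reads scaled by consensus length and library depth), or 45.5 ± 1.86 (SD, n = 3). STALKER3 had 38.9, 28.8 and 44.8 RPKM, or 37.5 ± 8.08 (SD, n = 3), from 56, 21 and 69 reads. STALKER4 had 287, 360 and 371 RPKM, or 339 ± 45.7 (SD, n = 3). STALKER4 thus lay above the other entries in every control input, while STALKER2 and STALKER3 lay near each other.

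The order was the same in the knockdown inputs. STALKER2 had 44.3 RPKM in Piwi-KD, 45.0 in H1-KD, 45.5 in Mael-KD and 48.6 in HP1a-KD. STALKER4 had 308 RPKM in Piwi-KD, 312 in H1-KD, 344 in Mael-KD and 417 in HP1a-KD. STALKER3 had 31.5, 35.3, 27.6 and 46.0 RPKM in the same 4 inputs. Within a library, STALKER4 held 6.60 to 8.59 times as much DNA per length as STALKER2, and more in 7 of 7 inputs. STALKER3 was below STALKER2 in 7 of 7, at 0.605 to 0.956 times its level. The counting interval held 1 in some inputs, as in control 3 (0.751 to 1.22), and not in others, as in Piwi-KD (0.528 to 0.957). The 7 inputs belong to 3 numbered samples, so they are not 7 independent units and no test was made over them. Over the 3 controls, an exact unpaired permutation test cannot go below p = 0.10. STALKER4 against STALKER2 reached that value (two-sided, Benjamini-Hochberg adjusted p = 0.15 over 6 tests). Each library gave the values of both entries, a pairing that the test ignored, so no conclusion is drawn from it. STALKER4 input in HP1a-KD was 1.13 times its control (counting interval 1.10 to 1.15), and the corresponding STALKER2 ratio was 1.04 (0.966 to 1.11). The STALKER4 ratio was 1.07 (1.04 to 1.11) in Piwi-KD, 1.09 (1.05 to 1.13) in H1-KD and 0.957 (0.917 to 0.999) in Mael-KD. Each STALKER4 interval left out 1, and each STALKER2 interval held it.

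**Figure D1:**
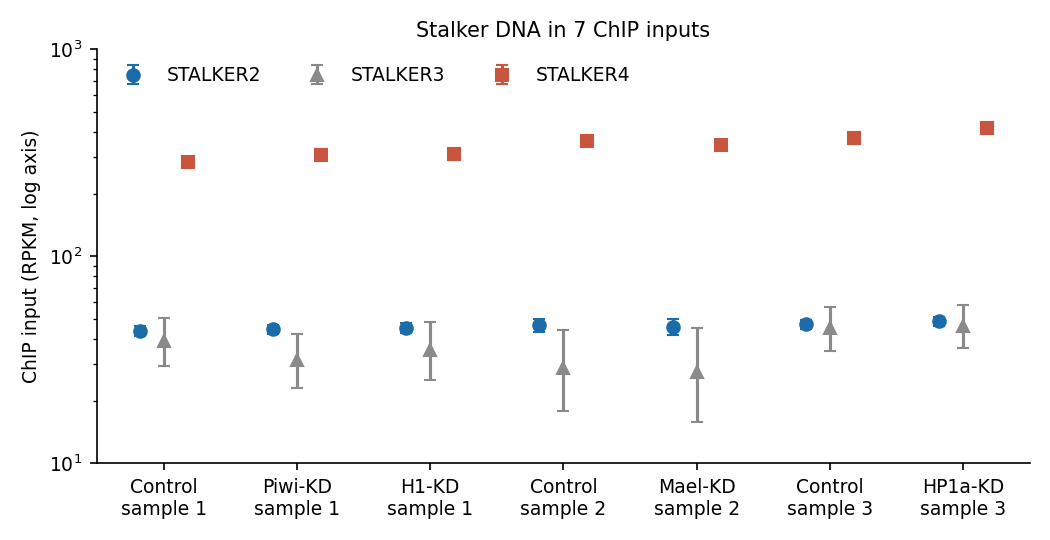
DNA matching each Stalker entry in 7 ChIP inputs, as RPKM on a log axis, with points for STALKER2 (circles), STALKER3 (triangles) and STALKER4 (squares) and bars for the 95% counting interval. STALKER4 lies at 287 to 417 RPKM, above STALKER2 at 43.4 to 48.6 and STALKER3 at 27.6 to 46.0 in every input.

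RNA of STALKER2 and STALKER4 was higher in both knockdowns, and STALKER4, the entry with most DNA, started from by far the lower level. STALKER2 RNA was 76.0 RPKM in control cells, 288 after Piwi knockdown and 182 after H1 knockdown. STALKER4 RNA was 5.78 RPKM in control cells, 68.5 after Piwi knockdown and 60.2 after H1 knockdown. STALKER2 was therefore 3.78-fold higher in Piwi-KD (interval 3.71 to 3.86) and 2.39-fold higher in H1-KD (2.35 to 2.44). STALKER4 was 11.9-fold higher in Piwi-KD (11.1 to 12.7) and 10.4-fold higher in H1-KD (9.76 to 11.1). The excess of STALKER4 over STALKER2, as a difference of log2 changes, was 1.65 (1.55 to 1.75) in Piwi-KD and 2.12 (2.02 to 2.22) in H1-KD.

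Both entries passed 2-fold in Piwi-KD, where 24.0% of transposons were called higher, 27.1% in either direction, and the median log2 change was 0.11. Both also passed it in H1-KD, where 58.3% were called higher and the median log2 change was 1.19. The STALKER2 value in H1-KD was near that of the median transposon, 0.06 above it on the log2 scale and 47th of 96. STALKER4 was 2.07 above the median in H1-KD and 10th of 96, and 11th of 96 in Piwi-KD. The gap in level between the entries narrowed: per length, STALKER2 RNA was 13.2 times STALKER4 RNA in control cells, 4.20 times after Piwi knockdown and 3.02 times after H1 knockdown. STALKER2 RNA in H1-KD was 0.632 times its Piwi-KD level, and the STALKER4 ratio was 0.878.

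STALKER3 RNA was at 0 reads in the control and in Piwi-KD, which allows up to 0.330 and 0.391 RPKM (3 counts per library), and at 20 reads or 2.105 RPKM in H1-KD. Its H1-KD level was 6.37 times the control floor and 5.38 times the Piwi-KD floor, and the exact counting interval of its fold over the control starts at 4.72. STALKER3 was among the lowest 25% in the RNA table and is not counted among the called transposons. Set against DNA, control RNA per input was 1.67 for STALKER2, 7th of 94 transposons, and 0.0170 for STALKER4, 69th.

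Piwi-bound small RNA, given in RPM (reads scaled by library depth alone), did not change by 2-fold for any entry. STALKER2 had 7313 RPM in the control and 4915 in H1-KD, a ratio of 0.672 (0.663 to 0.681). STALKER3 had 759 and 450 RPM, a ratio of 0.593 (0.567 to 0.619). STALKER4 had 12362 and 12577 RPM, a ratio of 1.02 (1.01 to 1.03). The STALKER3 log2 change of -0.74 was the second lowest of 96 and that of STALKER2, -0.57, ranked 88th, against a median of 0.27. In this comparison 33.3% of transposons were called higher and 0.00% lower, and 0 of the 3 entries were called. STALKER4 had a log2 change of 0.02, which lies 0.25 below the median transposon, so its direction turns when the libraries are centred on that median. Per kilobase of consensus the control order was 2040 RPM for STALKER3, 1783 for STALKER4 and 934 for STALKER2, and all 3 ranked among the first 22 of 128. Per input DNA, control small RNA per kilobase was 54.4 for STALKER3, 20.5 for STALKER2 and 5.26 for STALKER4.

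**Figure D2:**
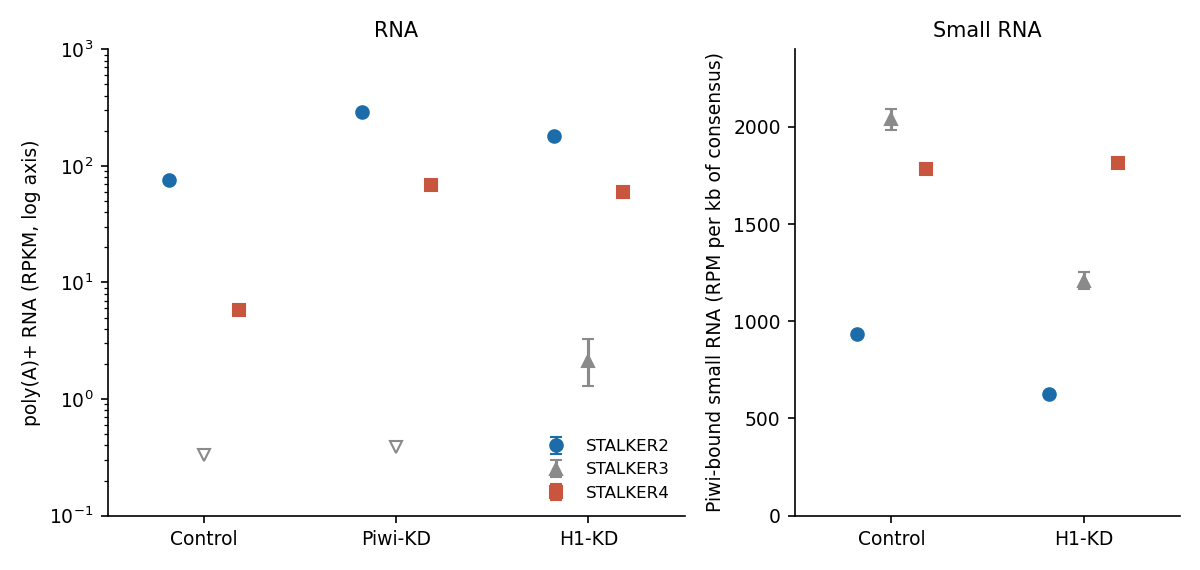
Left, poly(A)+ RNA in RPKM on a log axis, with open triangles for the limit that 0 reads of STALKER3 allow (3 counts); right, Piwi-bound small RNA in RPM per kilobase of consensus on a linear axis, 1 library per point and bars for 95% counting intervals. STALKER4 RNA goes from 5.78 to 68.5 and 60.2 RPKM while its small RNA stays near 1783 and 1814 RPM per kilobase.

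Accessibility separated the entries by knockdown. STALKER2 ATAC signal was 73.0 RPKM in control cells, 105 with Piwi knocked down, 118 with H1, 166 with HP1a and 113 with Mael knocked down. It was higher than the control in all 4 knockdown columns, by 1.44-fold in Piwi-KD (1.37 to 1.52), by 1.61-fold in H1-KD (1.53 to 1.70), by 2.27-fold in HP1a-KD (2.15 to 2.39) and by 1.55-fold in Mael-KD (1.46 to 1.64). STALKER4 signal was 299 RPKM in control cells, 248 with Piwi knocked down, 394 with H1, 823 with HP1a and 274 with Mael knocked down. Its HP1a-KD level stood apart, 2.76-fold above the control (2.68 to 2.83) and 3.32-fold above Piwi-KD. STALKER3 signal was 62.0 RPKM in control cells, 46.0 with Piwi knocked down, 86.3 with H1, 64.3 with HP1a and 60.9 with Mael knocked down. Of its 4 ratios to the control only that of H1-KD, 1.39, had an interval (1.06 to 1.85) that left out 1.

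At 1.5-fold, 0 of the 3 entries were called in Piwi-KD, where 11.5% of transposons were called higher and 2.08% lower. STALKER2 was called higher in H1-KD (12.5% of transposons), STALKER2 and STALKER4 in HP1a-KD (31.2%), and STALKER2 in Mael-KD (8.33%). With a pseudocount of 0.5 of the median, the STALKER2 calls in H1-KD (log2 change of 0.52) and Mael-KD (0.48) were lost. Over all transposons the median log2 change was -0.32 for Piwi-KD, -0.08 for H1-KD, 0.21 for HP1a-KD and -0.23 for Mael-KD. STALKER2 lay 0.73 to 0.91 above these medians in all 4 knockdowns. The STALKER4 log2 changes of -0.26 in Piwi-KD and -0.12 in Mael-KD turn to 0.05 and 0.11 when set against the median transposon. STALKER4 exceeded STALKER2 in log2 change by 0.28 (0.20 to 0.36) in HP1a-KD, and fell short of it with a difference of -0.80 (-0.89 to -0.71) in Piwi-KD and -0.75 (-0.85 to -0.66) in Mael-KD. In the control, ATAC per input DNA was 1.60 for STALKER2, 1.65 for STALKER3 and 0.881 for STALKER4.

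**Figure D3:**
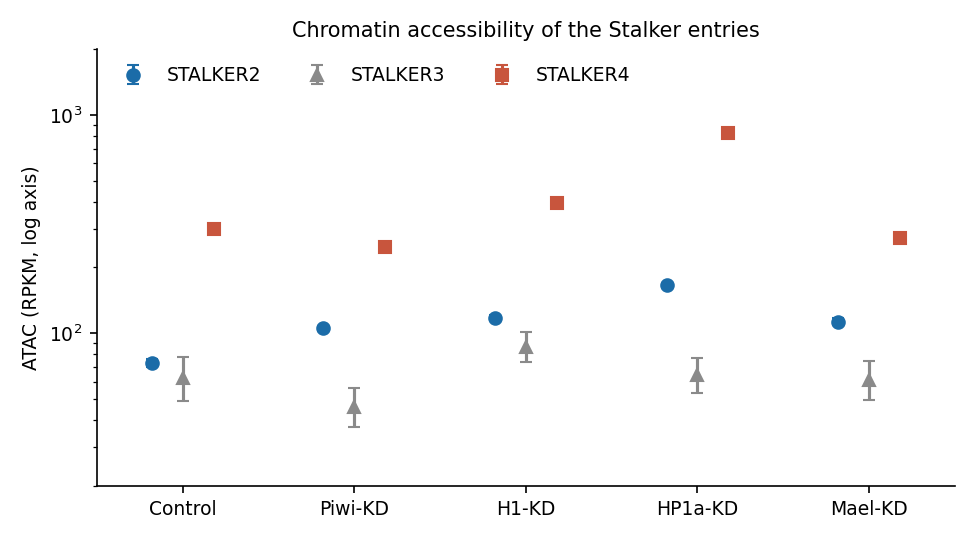
ATAC signal of the 3 entries in RPKM on a log axis, 1 column per condition, with bars for 95% counting intervals. STALKER2 is above its control of 73.0 RPKM in every knockdown, and STALKER4 reaches 823 RPKM in HP1a-KD against 299 in the control.

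H3K9me3, the mark of silent heterochromatin, was lower over STALKER2 in both knockdowns. ChIP over input for STALKER2 was 3.03 in control cells, 1.25 after Piwi knockdown and 1.42 after H1 knockdown. For STALKER4 it was 3.13 in control cells, 3.42 after Piwi knockdown and 2.37 after H1 knockdown. For STALKER3 it was 2.37 in control cells, 4.75 after Piwi knockdown and 2.88 after H1 knockdown. The control values of STALKER2 and STALKER4 were close, and those in Piwi-KD were far apart. STALKER2 fell to 0.414 times its control in Piwi-KD (0.372 to 0.461) and to 0.469 times in H1-KD (0.421 to 0.522). STALKER4 was 1.09 times its control in Piwi-KD (1.05 to 1.14), and its log2 change of 0.13 turns to -0.19 against the median transposon. In H1-KD its ratio was 0.757 (0.727 to 0.789), short of 1.5-fold.

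In Piwi-KD, STALKER2 was called lower and STALKER3 higher, where 13.5% of transposons were called in each direction, 27.1% in all, and the median log2 change was 0.32. The STALKER3 ratio of 2.01 rested on 83 ChIP reads in the control and 121 in Piwi-KD and had an interval of 1.24 to 3.25. Against the median transposon its log2 change was 0.58 and no longer reached 1.5-fold. In H1-KD, STALKER2 alone of the entries was called, lower, where 6.25% of transposons were called lower and 2.08% higher. Its log2 change of -0.96 was the second lowest of 96. The log2 change of STALKER4 exceeded that of STALKER2 by 1.40 (1.24 to 1.57) in Piwi-KD and by 0.69 (0.53 to 0.86) in H1-KD.

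HP1a, which binds H3K9me3, was likewise lower over STALKER2 in both knockdowns. ChIP over input for STALKER2 was 1.76 in control cells, 0.968 after Piwi knockdown and 1.09 after H1 knockdown. For STALKER4 it was 1.95 in control cells, 2.01 after Piwi knockdown and 2.06 after H1 knockdown. For STALKER3 it was 1.88 in control cells, 2.46 after Piwi knockdown and 2.06 after H1 knockdown. STALKER2 fell to 0.549 times its control in Piwi-KD (0.491 to 0.615), where 6.25% of transposons were called lower and 2.08% higher. It fell to 0.617 times its control in H1-KD (0.553 to 0.688), where 2.08% were called lower and 0.00% higher. Both calls were lost with a pseudocount of 0.5 of the median (log2 changes of -0.51 and -0.42), and that in H1-KD also without input (-0.57). The other 2 entries were called in neither knockdown. The STALKER4 log2 changes of 0.04 and 0.08 turn to -0.01 and -0.04 against medians of 0.05 and 0.12, and both STALKER3 intervals held a ratio of 1. STALKER4 exceeded STALKER2 in log2 change by 0.90 (0.73 to 1.08) in Piwi-KD and by 0.77 (0.60 to 0.94) in H1-KD.

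Linker histone H1 was the only ChIP target with more than 1 control library. In the 3 controls, H1 over input for STALKER2 was 0.880, 0.922 and 0.883, or 0.895 ± 0.0234 (SD, n = 3). For STALKER3 it was 1.28, 1.33 and 1.11, or 1.24 ± 0.115 (SD, n = 3). For STALKER4 it was 1.40, 1.15 and 1.22, or 1.26 ± 0.129 (SD, n = 3). The STALKER2 values lay below all values of the other entries and ranked 85th of 94 transposons, while STALKER3 and STALKER4 overlapped. The exact two-sided unpaired permutation test of STALKER4 against STALKER2 gave p = 0.10 (adjusted p = 0.15), the smallest it allows with 3 values against 3. That test also ignored that each library gave the values of both entries, so no conclusion is drawn from it.

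In the knockdowns, STALKER2 H1 over input was 0.607 in Piwi-KD, 0.740 in Mael-KD and 0.678 in HP1a-KD. All 3 values lay below the 3 control values. STALKER4 had 1.501, 1.17 and 1.01, and STALKER3 had 1.94, 1.29 and 0.892, in the same order of knockdowns. Against the control of the same sample number, the STALKER2 ratios were 0.690 (0.613 to 0.776), 0.803 (0.687 to 0.938) and 0.768 (0.690 to 0.854). On the log2 scale with the pseudocount, 0 of the 3 entries were called in these knockdowns, where 3.12% of transposons were called in each direction in Piwi-KD, 2.08% lower in Mael-KD and 4.17% lower in HP1a-KD. The median log2 change over all transposons was 0.02 in Piwi-KD, -0.05 in Mael-KD and -0.11 in HP1a-KD. STALKER3 in Piwi-KD had a log2 change of 0.54, just short of 1.5-fold. Without the pseudocount its ratio was 1.52 (0.919 to 2.50), and it was called then and with the mean of the 3 controls.

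A limma fit over 94 transposons set each lone knockdown library against the 3 controls and assumed that it varies as they do. The fit had no term for sample number, so each knockdown was also set against controls of other sample numbers. Median log2 H1 over input of all transposons was 0.378 in control 1, 0.192 in control 2 and 0.232 in control 3. Leaving out control 1 removed the only control with the sample number of Piwi-KD and left 1 residual degree of freedom. With each library centred on its median transposon, the HP1a-KD log2 differences below shrank to -0.19 for STALKER2, -0.25 for STALKER3 and -0.13 for STALKER4. Those in Piwi-KD became -0.61 for STALKER2, 0.45 for STALKER3 and 0.10 for STALKER4. With all 3 controls and no centring, the fit gave every transposon the same SE of 0.18 (log2), whatever its reads. Its smallest adjusted p (Benjamini-Hochberg) for a Stalker entry was that of STALKER3 in Piwi-KD, with a log2 difference of 0.61 and adjusted p = 0.0282. STALKER3 had 84 ChIP and 45 input reads there, and the counting interval of its log2 ratio to its own control alone was -0.12 to 1.32, so this p leaves out counting error that is wider than the SE. That limma call held without control 1 (adjusted p = 0.0477) and was lost without control 2, without control 3 and under the other 4 alternatives, with adjusted p from 0.0282 to 0.605 in all. STALKER2 in Piwi-KD had a log2 difference of -0.45 (limma adjusted p = 0.255, range 0.0327 to 0.792), which passed only on centring and without control 1. STALKER4 in Piwi-KD had 0.26 (limma adjusted p = 0.604, range 0.0477 to 0.967) and passed only without control 1. In HP1a-KD the log2 differences were -0.37 for STALKER2 (limma adjusted p = 0.301), -0.44 for STALKER3 (adjusted p = 0.203) and -0.31 for STALKER4 (adjusted p = 0.431). In Mael-KD they were -0.26 for STALKER2 (limma adjusted p = 0.791), 0.03 for STALKER3 (adjusted p = 0.934) and -0.10 for STALKER4 (adjusted p = 0.902). Over all transposons the fit called 4 for Piwi-KD, 1 for Mael-KD and 4 for HP1a-KD.

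**Figure D4:**
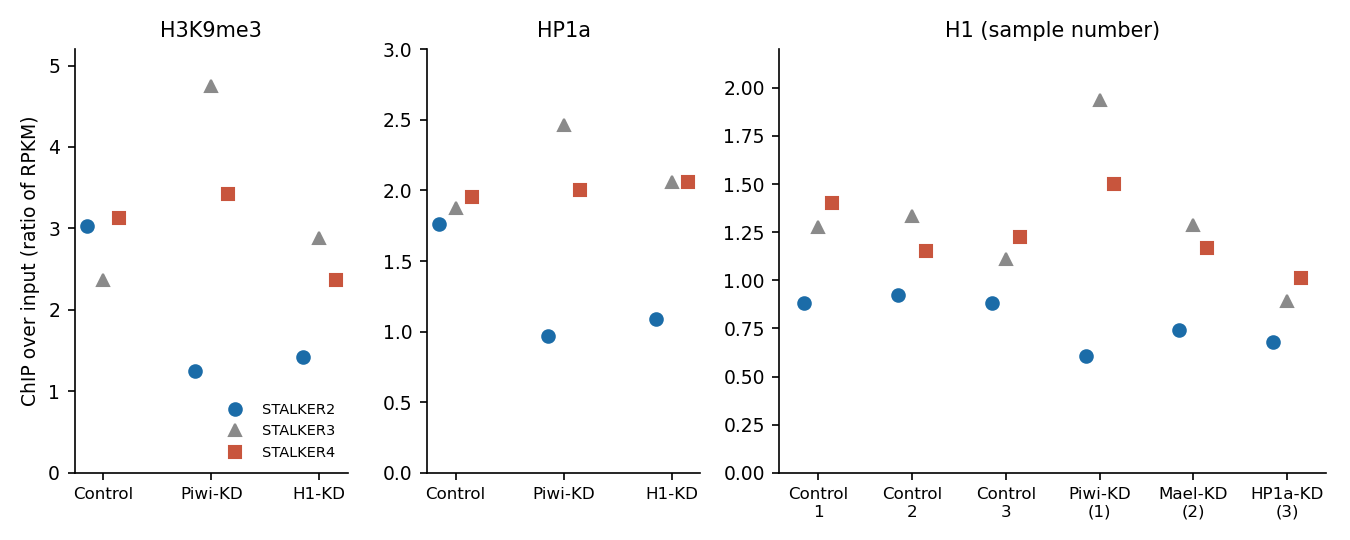
ChIP over input (ratio of RPKM values, axes from 0) for H3K9me3, HP1a and H1. Each point is 1 ChIP library over the input of its condition and sample number. For sample 1 the ChIP targets share 1 input per condition. STALKER2 drops from 3.03 to 1.25 and 1.42 for H3K9me3 and from 1.76 to 0.968 and 1.09 for HP1a, while for H1 it lies below the other entries in all 6 libraries.

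Across the 14 comparisons STALKER2 was called in 9, with 5 higher (RNA and ATAC) and 4 lower (H3K9me3 and HP1a). In these 9, the share of all transposons called in the same direction ran from 2.08% (HP1a in H1-KD) to 58.3% (RNA in H1-KD). STALKER4 was called higher in 3, its RNA in both knockdowns and its ATAC signal in HP1a-KD, and lower in 0. There, 24.0% (RNA in Piwi-KD), 58.3% (RNA in H1-KD) and 31.2% (ATAC) of transposons were called higher. STALKER3 was called in 1 of the 12 in which it was kept, H3K9me3 in Piwi-KD, where 13.5% were called higher. The number of calls of a typical transposon was not counted. The log2 changes of STALKER4 and STALKER2 differed beyond counting error in 13 of 14 comparisons. Over the 2278 pairs of transposons with reads in every comparison, the median pair differed in 9 of 14, and 14.7% of pairs differed in as many or more. The exception was H1 ChIP in HP1a-KD, with a difference of 0.11 (-0.05 to 0.27). STALKER3 differed from STALKER2 in 9 of 12 comparisons and from STALKER4 in 3 of 12, where the median pair differed in 7. Between STALKER4 and STALKER3 those 3 were small RNA in H1-KD, ATAC in HP1a-KD and H3K9me3 in Piwi-KD, and the reads of STALKER3 limited what could be seen in the rest.

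**Figure D5:**
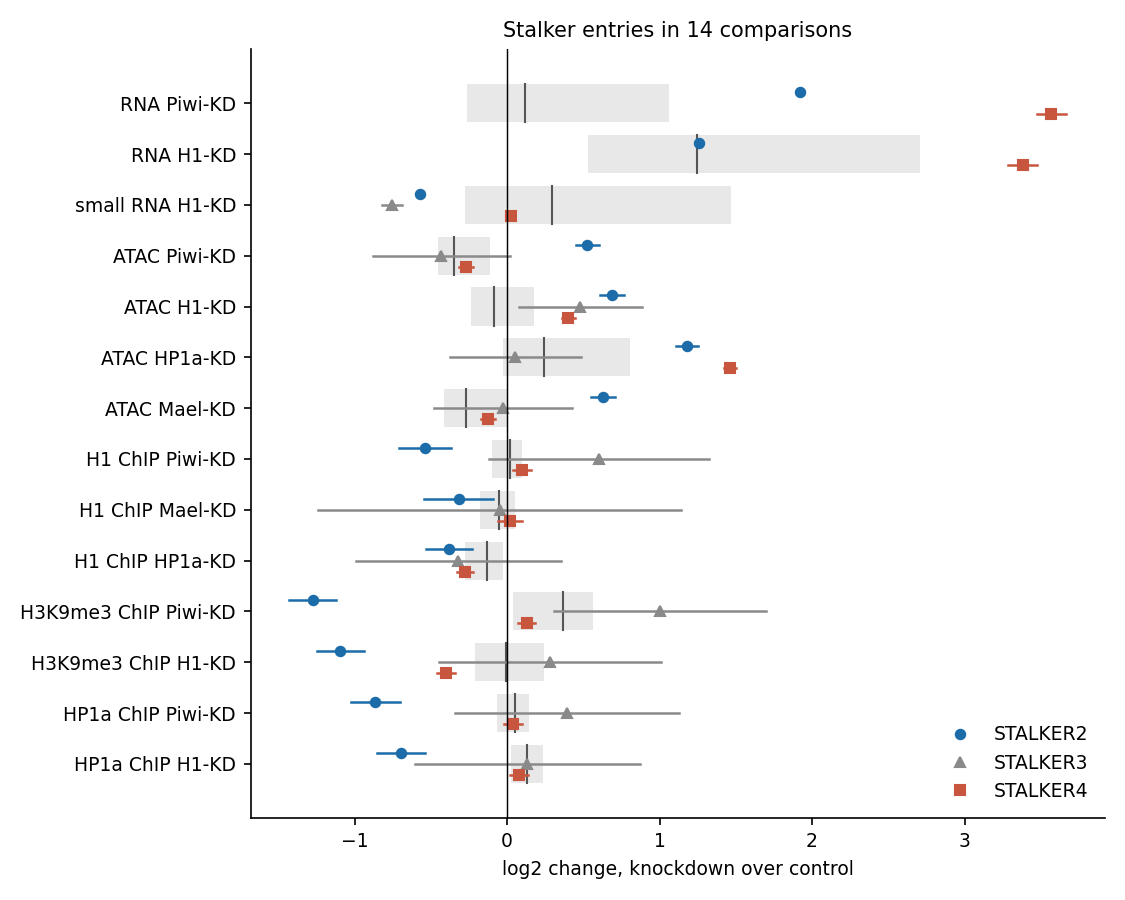
Log2 of knockdown over control without a pseudocount for the 3 entries in 14 comparisons, with lines for 95% counting intervals, grey boxes for the middle 50 percent of the transposons kept and a dark bar for their median. STALKER3 has no point for RNA, where its control had 0 reads. STALKER2 lies left of the grey box for H3K9me3 and HP1a in both knockdowns, and STALKER4 lies far to the right for RNA.

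The transposons whose log2 changes were nearest to those of each entry were found by the root mean square difference over the comparisons, which share control libraries. For STALKER2 the nearest of 67 was BLOOD, an LTR element of the same mdg1 lineage, at 0.503, then I at 0.612 and COPIA at 0.650, with a median of 1.05 over the candidates. The other mdg1 lineage relatives chosen here were farther than that median, DM412 49th at 1.23 and MDG1 62nd at 1.48. These distances were not scaled by assay, so the large RNA changes weigh most in them. RNA log2 changes in Piwi-KD were 6.35 for DM412, 5.09 for MDG1 and 1.91 for STALKER2. In H1-KD they were 1.61 for DM412, 5.67 for MDG1 and 1.25 for STALKER2. A distance of STALKER2 without RNA was not computed. STALKER4 came 19th for STALKER2, at 0.9004. For STALKER4 the nearest were TABOR at 0.513, DOC at 0.602 and TRANSIB2 at 0.769, and STALKER2 came 8th. DM412 (17th at 1.05) and MDG1 (23rd at 1.11) were nearer to STALKER4 than its candidate median of 1.18, and BLOOD (39th at 1.22) was farther. For STALKER3, over 12 comparisons and 68 candidates, the nearest were TC1 at 0.341, ROVER at 0.376 and GYPSY4 at 0.378, with STALKER4 26th and STALKER2 51st.

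The mdg1 lineage relatives MDG1, DM412 and BLOOD, a list chosen with earlier results known, gave a range in which the Stalker entries could be placed. MDG1 RNA was 33.8 RPKM in control cells, 1164 after Piwi knockdown and 1742 after H1 knockdown. DM412 RNA was 8.67, 749 and 27.6 RPKM in the same order, and BLOOD RNA was 572, 875 and 768. The STALKER4 RNA changes thus lay between those of MDG1 and BLOOD in both knockdowns, and above that of DM412 in H1-KD. H3K9me3 over input was called lower in Piwi-KD for 3 of 3 of these chosen relatives and for 13.5% of all transposons. The log2 changes were -1.63 for MDG1, -1.18 for DM412 and -0.95 for BLOOD, beside -1.10 for STALKER2 and 0.13 for STALKER4. In H1-KD the H3K9me3 log2 changes were -1.21 for BLOOD, the lowest of 96, -0.71 for MDG1 and -0.48 for DM412, beside -0.96 for STALKER2 and -0.39 for STALKER4. Those of HP1a in H1-KD were -0.68 for BLOOD, again the lowest, -0.37 for MDG1 and -0.08 for DM412, beside -0.62 for STALKER2 and 0.08 for STALKER4. For HP1a in Piwi-KD they were -0.84 for MDG1, -0.52 for DM412 and -0.59 for BLOOD, beside -0.76 for STALKER2. ATAC log2 changes of the relatives were above 0 in every knockdown, as for STALKER2, from 0.13 (DM412 in H1-KD) to 1.17 (MDG1 in HP1a-KD). Those of H1 over input were below 0 in every knockdown, also as for STALKER2, from -0.07 (BLOOD in Mael-KD) to -0.76 (MDG1 in Piwi-KD). Small RNA in H1-KD had log2 changes of -0.58 for MDG1 and -0.62 for BLOOD, beside -0.57 for STALKER2, and of -0.02 for DM412, beside 0.02 for STALKER4.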

How the data were processed

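The authors deposited 1 value per transposon and column. The deposited small RNA values were read as RPM and all other deposited values as RPKM. Both units were deduced from the values: 3606 of 3606 nonzero values were whole reads within 0.05, with lengths for 128 of 129 transposons (186 to 14477 bp). Per the submitters' processing notes, cutadapt, Bowtie 1.0.1, Bowtie2 2.0.6, TopHat2 2.0.7, Cufflinks 2.1.1, MACS2 and build dm3 were used. The sources used here do not say how reads matching several related families were counted, or whether ATAC columns pool replicates or shift reads, so reads may be split among related entries. Samples were grouped by title. The separate cultures behind sample numbers are not stated, so the spread may be technical.

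Log2 changes used a pseudocount of 0.1 of each table's median nonzero value (0.553 RPKM for RNA, 5.80 for ATAC, 8.10 RPM for small RNA), which understates changes of low transposons. Intervals and folds carry no pseudocount. Intervals on a ratio of 2 libraries were exact (Clopper-Pearson), and those on ChIP over input of the same sample number used a normal approximation. Intervals on ratios and differences between entries used the normal approximation in every assay. A planned ATAC test needed replicate columns and could not be made. H1 ChIP was fitted with limma 3.58.1 in R 4.3.3, with 2 residual degrees of freedom. Shares over all pairs of transposons were added after the design. The computations were tested on simulated data. The members, relatives and alternatives were chosen with earlier results of these data known. Named transposons are the 3 entries, 3 relatives and the 3 nearest patterns of each entry. Alternatives were other pseudocounts, no filter, centring, no input, ATAC over input, the mean of 3 controls, and leaving out each H1 control.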

Additional observations from a re-analysis of the deposited data

How the results depend on the processing

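Of 13 called changes of the Stalker entries, 7 remained under every alternative and 0 changed sign. STALKER2 RNA in H1-KD (0.06) and STALKER3 H3K9me3 in Piwi-KD (0.58) were lost on centring. STALKER2 ATAC in H1-KD (0.52) and Mael-KD (0.48) and HP1a in Piwi-KD (-0.51) and H1-KD (-0.42) were lost with a pseudocount of 0.5 of the median, and the last also without input (-0.57). STALKER3 small RNA (-1.01) and STALKER2 ATAC in Piwi-KD (0.81) were gained on centring, and STALKER3 H1 in Piwi-KD without a pseudocount (0.60) or with the mean of the controls (0.61). STALKER4 and STALKER2 differed in 14 of 14 comparisons without input and in 13 with ATAC over input, both chosen after seeing the data. No paired analysis was possible because the groups compared share fewer than 2 sample numbers and the ATAC columns carry none.

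The counts over all transposons moved by over 1.5 times as follows, and apart from the centring and input steps, which change the scale by construction, the cause was not tested. Without a pseudocount, 7 were lower in RNA and 7 in ATAC of Piwi-KD, 2 lower in ATAC of H1-KD, 4 lower in ATAC and 4 in H1 ChIP of Mael-KD, 5 higher in H1 ChIP and 20 in H3K9me3 of Piwi-KD, and 6 higher in H3K9me3 and 3 in HP1a of H1-KD. With a pseudocount of 0.5, 18 were higher in small RNA, 0 lower in ATAC of Piwi-KD and of Mael-KD, 1 higher in H1 ChIP, 5 in H3K9me3 and 0 in HP1a of Piwi-KD, 3 lower in HP1a of Piwi-KD, 1 lower in H1 ChIP of Mael-KD, 2 lower in H1 ChIP of HP1a-KD, and 0 higher in H3K9me3 and 1 lower in HP1a of H1-KD. Without the filter, 2 were lower in ATAC of H1-KD, 1 in ATAC of HP1a-KD and 4 in H1 ChIP of Mael-KD, and 1 higher in H1 ChIP of HP1a-KD. Centred on the median transposon, RNA in H1-KD had 24 higher and 11 lower in place of 56 and 0, H3K9me3 in Piwi-KD had 1 higher in place of 13, and 3 were lower in small RNA, 0 in ATAC of Piwi-KD, 4 in ATAC of HP1a-KD, 0 in ATAC of Mael-KD and 1 in H1 ChIP of Mael-KD. Without input, 1 was higher in H1 ChIP, 7 in H3K9me3 and 0 in HP1a of Piwi-KD, 1 lower in H1 ChIP of Mael-KD and of HP1a-KD, and 1 higher in H3K9me3 and 1 lower in HP1a of H1-KD. With ATAC over input, 5 were lower in Mael-KD, 2 in H1-KD and 2 in HP1a-KD. With the mean of 3 controls, 1 was lower in H1 ChIP of Mael-KD and 1 higher in that of HP1a-KD.

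In the limma fit, leaving out each control in turn gave 0 to 23 called in Piwi-KD (23 without control 1, 2 without control 2, 0 without control 3) and 2 to 6 in HP1a-KD (2 without control 3). At an unadjusted p under 0.05 the fit without control 3 held 5 in Piwi-KD. Centring left 0 called for Mael-KD, where 9 had an unadjusted p under 0.05, and 1 called for HP1a-KD. Without input, 0 were called for each knockdown, and an unadjusted p under 0.05 was held by 6 (Piwi-KD), 1 (Mael-KD) and 1 (HP1a-KD). Without the filter, 3 were called for Mael-KD. In Mael-KD the STALKER3 difference of 0.03 ran from -0.0397 without control 3 to 0.0736 without control 2, and turned to -0.34 without input and to -0.0198 with a pseudocount of 0.5, and the STALKER4 difference of -0.10 turned to 0.0087 on centring. Relative to the median transposon, control H1 over input (log2) was -0.43 for STALKER2, 0.0399 for STALKER3 and 0.0604 for STALKER4. The 16 to 73 input reads of STALKER3 limit its ChIP ratios. In Piwi-KD its H3K9me3, HP1a and H1 ratios shared 1 pair of inputs, with 56 reads in the control and 45 in Piwi-KD. Without input its log2 changes there went from 0.90 to 0.63 for H3K9me3, from 0.35 to 0.08 for HP1a and from 0.54 to 0.27 for H1.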
